A study of Mus musculus with 13 samples.

Results

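The genes described here are the linked cytokine genes of mouse chromosome 11, Il3, Csf2, Il5, Il13 and Il4, with 3 neighbours that encode no cytokine, P4ha2, Rad50 and Kif3a. The 8 members were found as the rows of the counts table whose Ensembl gene ID maps to these symbols, out of 56941 genes in the table. RNA-seq was carried out on Th17 cells, the helper T cells defined by interleukin 17 secretion, which were grown from naive CD4+ T cells of mouse spleen for 72 h under Th17-polarizing conditions. There were 3 libraries of the genotype Chaf1bWT, called WT here, and 3 of the genotype Chaf1bfl/fl;Il17fCre+, called KO. Chaf1b is the gene of the middle subunit of the CAF-1 histone chaperone, which places new histones H3 and H4 on replicated DNA. In the KO genotype Cre is produced from Il17f, a gene of the Th17 programme itself, so that deletion takes place only in cells that have expressed Il17f. The labels do not say whether the WT cells carried Cre, and strain, age and sex were not given in the sources used here. The labels call the libraries biological replicates without saying that each came from a separate animal, so that p-values rest on a spread between libraries that may be technical.

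Il3 encodes interleukin 3, Csf2 encodes GM-CSF, and both proteins, with interleukin 5, signal through receptors that share a beta chain and act on myeloid cells. Il4, Il5 and Il13 are the type 2 cytokine genes, which are opened together in Th2 cells, where the 3′ part of the intervening Rad50 gene holds a locus control region. In Th17 cells Csf2 is known as a gene of the disease-causing effector state, while the type 2 cytokine genes are kept at a low level.

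Total counts ran from 35708879 to 45232055 per library. Across all genes, 938 of 14681 tested genes passed an adjusted p of 0.05 between the genotypes, 576 higher and 362 lower in KO. Adjusted p-values come from edgeR's quasi-likelihood test, adjusted by Benjamini-Hochberg over all tested genes. Chaf1b itself showed no fall, with 13.2, 11.4 and 11.5 CPM (counts scaled to the size of the library) in WT replicates 1 to 3 and 16.3, 14.9 and 13.5 CPM in KO replicates 1 to 3 (log2 fold change 0.31 ± 0.11, SE, adjusted p = 0.130). The exons removed by the floxed allele were not given in the sources used here, so that this count summed over exons does not check the genotype, and WT and KO stand below for what the libraries are labelled. Of the defining Th17 genes, Il17a and Il17f were detected in every library and both fell in KO, Il17a from 66.4 ± 32.6 to 8.97 ± 0.792 CPM (mean ± SD, n = 3, adjusted p = 0.0181) and Il17f from 41.4 ± 20.7 to 5.82 ± 0.571 CPM (adjusted p = 0.0135). The Il17a fall missed the threshold without KO replicate 1 or 2 (adjusted p = 0.0507 and 0.0712), and the Il17f fall without KO replicate 2 (0.0522), without the low count filter (0.0578) and in limma-voom (0.0569). As Cre is produced from Il17f in KO, the Cre allele and Chaf1b deletion cannot be told apart for the Il17f counts. Among the WT libraries, replicate 1 stood farther from replicates 2 and 3 (root mean square difference of log2 CPM 0.457 and 0.49) than these did from each other (0.411), and it held the highest Il17a level, 104 CPM against 52.3 and 43.1.

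The cytokine genes of the cluster are read from their own start sites, and the 250 bases before a listed start of each gene are shown. Whether the counted transcripts began at these starts was not tested. The sequences are from RefSeq, build GRCm38.p6, and are written 5′ to 3′ along the strand of the gene. They lie at chr11:54267280-54267529 (minus strand, Il3), chr11:54249900-54250149 (minus, Csf2), chr11:53634703-53634952 (minus, Il13), chr11:53720544-53720793 (plus, Il5) and chr11:53618666-53618915 (minus, Il4, the more upstream of 2 listed windows). Capitals mark every match, on either strand, to 1 of 7 short motifs: TTTCC (core of NFAT sites), TGANTCA (AP-1), GATAA (GATA factors), AGGTCA (core site of nuclear receptors), TGTGGT (Runx), GAGATTCC (core of the CK-1 element) and TATAAA (the TATA box). A match on the other strand appears as its reverse complement, GGAAA for TTTCC.
Il3: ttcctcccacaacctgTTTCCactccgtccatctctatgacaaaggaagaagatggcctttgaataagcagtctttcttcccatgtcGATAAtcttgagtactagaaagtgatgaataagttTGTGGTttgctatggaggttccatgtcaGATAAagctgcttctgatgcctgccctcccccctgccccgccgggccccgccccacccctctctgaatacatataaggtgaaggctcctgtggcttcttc
Csf2: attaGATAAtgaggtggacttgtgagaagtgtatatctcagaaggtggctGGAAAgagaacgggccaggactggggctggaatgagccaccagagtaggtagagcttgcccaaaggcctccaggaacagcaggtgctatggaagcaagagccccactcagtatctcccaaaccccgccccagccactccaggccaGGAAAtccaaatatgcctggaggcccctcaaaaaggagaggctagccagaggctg
Il13: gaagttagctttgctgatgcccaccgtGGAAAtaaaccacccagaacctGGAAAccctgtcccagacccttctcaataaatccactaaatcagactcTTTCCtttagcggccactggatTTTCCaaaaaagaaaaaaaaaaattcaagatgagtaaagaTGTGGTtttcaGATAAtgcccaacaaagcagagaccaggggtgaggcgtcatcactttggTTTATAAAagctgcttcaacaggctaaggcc
Il5: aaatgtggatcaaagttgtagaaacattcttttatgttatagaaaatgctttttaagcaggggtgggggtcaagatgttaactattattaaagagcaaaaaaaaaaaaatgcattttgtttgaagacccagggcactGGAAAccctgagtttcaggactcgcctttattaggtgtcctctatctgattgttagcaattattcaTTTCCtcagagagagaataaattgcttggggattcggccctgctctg
Il4: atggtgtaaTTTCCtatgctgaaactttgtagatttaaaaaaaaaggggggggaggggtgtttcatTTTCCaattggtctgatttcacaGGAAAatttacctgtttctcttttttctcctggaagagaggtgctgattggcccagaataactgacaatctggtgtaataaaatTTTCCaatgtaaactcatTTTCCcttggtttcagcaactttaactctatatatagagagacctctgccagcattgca
TTTCC was found in all 5 windows, 1 time before Il3, 2 times before Csf2, 4 times before Il13, 2 times before Il5 and 5 times before Il4. It occurs in 55.6% of the 32851 promoter windows of this length, so that its presence is common. GATAA, present in 22.6% of all windows, lay 163 and 100 bases before the Il3 start, 246 bases before that of Csf2 and 80 bases before that of Il13, and was not found in the Il5 and Il4 windows. TGTGGT, present in 14.0% of windows, lay 128 bases before the Il3 start and 91 bases before the Il13 start. Before Il13, TATAAA was found on both strands in 2 overlapping matches that began 31 and 29 bases before the start, against 12.4% of windows with any match. The AP-1, nuclear receptor and CK-1 motifs (6.75%, 14.0% and 0.755% of windows) had no match in the 5 windows. Sequence outside the listed windows was not searched, so that these genes may hold such motifs elsewhere. The second Il4 window held no match to any motif, the P4ha2 window 1 TGTGGT and the Kif3a window 1 TTTCC. These matches describe letters only.

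Il3, Csf2 and Il13 were higher in KO, by 2.72, 1.64 and 2.55 times, and these 3 were the members past the threshold. Among all tested genes 6.39% passed in either direction, 3.92% as higher and 2.47% as lower. Of the 8 members, 7 passed the filter on low counts, Il4 being removed, and none was lower. Summed over the 5 cytokine genes, the level was 141, 121 and 120 CPM in the WT libraries and 290, 258 and 265 CPM in the KO libraries, a ratio of means of 2.12. Il3 and Csf2 made up most of these sums (WT means 52.8 and 70.1 CPM, KO means 144 and 115 CPM). In RNA from whole cultures, more producing cells and more RNA per cell cannot be told apart.

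Il3, whose product supports mast cells, basophils and blood progenitors, was measured at 61.4, 48.9 and 48.2 CPM in WT replicates 1 to 3 and at 162, 130 and 140 CPM in KO replicates 1 to 3. The groups did not overlap, and the lowest KO library lay above the highest WT library. The mean rose from 52.8 ± 7.44 to 144 ± 16.3 CPM (SD, n = 3), with a log2 fold change of 1.45 ± 0.11 (95% interval 1.21 to 1.68, adjusted p = 5.56e-05). Il3 ranked 101 of the 14681 tested genes from the largest rise down. The counts behind these values were 1878 to 2521 in WT and 4952 to 5683 in KO.

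Csf2, the gene of GM-CSF, was measured at 74.3, 68.6 and 67.5 CPM in WT and at 118, 115 and 112 CPM in KO. The spread within each group was small beside the gap, with no overlap. The mean rose from 70.1 ± 3.65 to 115 ± 2.88 CPM, a log2 fold change of 0.71 ± 0.06 (0.59 to 0.84, adjusted p = 3.19e-05, rank 539). Gm12223, a long non-coding gene that overlaps Csf2 in the reference table, held at most 10 counts in any library. Reads from overlapping exons could not be assigned by strand in these counts.

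Il13, the type 2 cytokine that acts on epithelium and macrophages, was measured at 4.97, 3.52 and 4.22 CPM in WT and at 9.59, 11.7 and 11.1 CPM in KO. All KO libraries were above all WT libraries. The mean rose from 4.23 ± 0.727 to 10.8 ± 1.09 CPM, a log2 fold change of 1.35 ± 0.15 (1.02 to 1.68, adjusted p = 4.35e-04, rank 129). Il13 rested on fewer counts than Il3 and Csf2, 135 to 204 in WT and 337 to 447 in KO. KO replicate 1, which had the highest Il3, had the lowest Il13 of the 3 KO libraries.

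Il5, the eosinophil growth factor gene, was barely detected, with 21, 8 and 11 counts in the WT libraries and 21, 28 and 29 counts in the KO libraries. These correspond to 0.512, 0.208 and 0.242 CPM in WT and 0.598, 0.734 and 0.787 CPM in KO, so that the groups lay apart by a narrow margin set by WT replicate 1. The log2 fold change of 1.13 ± 0.45 (0.14 to 2.12) did not pass (adjusted p = 0.174). Without WT replicate 1 it was 1.63 (adjusted p = 0.0394), in a comparison in which 19.7% of all tested genes passed.

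Il4, the signature Th2 cytokine gene, was at the edge of detection, with 6, 10 and 10 counts in the WT libraries and 4, 16 and 9 counts in the KO libraries (0.146, 0.260 and 0.220 against 0.114, 0.419 and 0.244 CPM). The groups overlapped, with the lowest and the highest value both in KO. A fit without the low count filter gave a log2 fold change of 0.31 ± 0.74 (-1.14 to 1.76, adjusted p = 0.883). An Il4 change of the size seen for Il3 lies inside this interval and was not detectable at this depth.

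**Figure D1:**
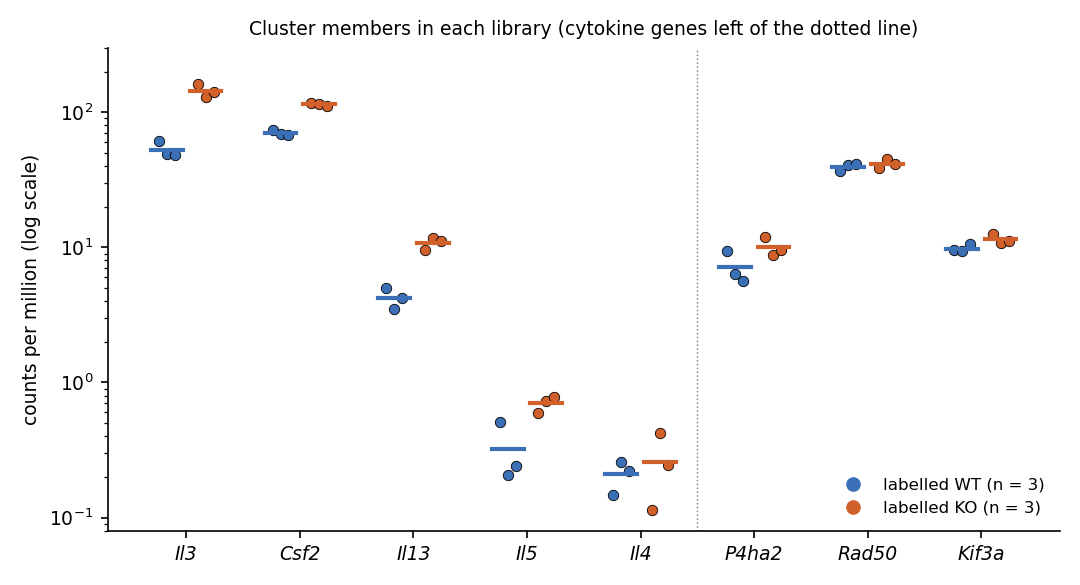
Level of each member in CPM on a log axis, with 1 point per library and a bar at the mean of each genotype (n = 3). The KO points of Il3, Csf2 and Il13 lie above every WT point of the same gene, as do, by narrow margins, those of Il5 and Kif3a. This holds for 14.4% of all tested genes. The points of Il4, P4ha2 and Rad50 overlap. Heights of different genes are not corrected for transcript length.

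The 3 neighbours that encode no cytokine were not called. P4ha2, a prolyl hydroxylase gene of collagen maturation next to Csf2, was measured at 9.40, 6.30 and 5.64 CPM in WT and 11.9, 8.83 and 9.58 CPM in KO. WT replicate 1 lay inside the KO range and the other two WT libraries below it. The log2 fold change was 0.51 ± 0.19 (0.08 to 0.93, adjusted p = 0.156). It was 0.76 without WT replicate 1 (adjusted p = 2.66e-04), and it also passed without the low count filter (0.50, adjusted p = 0.010, with 6.01% of all genes passing) and with library quality weights in limma-voom (0.64, adjusted p = 0.00337, with 20.0% passing).

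Rad50, the DNA repair gene that lies between Il13 and Il5, was measured at 36.7, 40.8 and 41.1 CPM in WT and at 38.6, 45.2 and 41.2 CPM in KO. The groups overlapped. Its log2 fold change of 0.08 ± 0.08 had an interval of -0.10 to 0.25 (adjusted p = 0.644), which lies below the intervals of Il13 and Il3. Kif3a, a kinesin motor subunit gene next to Il4, was measured at 9.50, 9.35 and 10.5 CPM in WT and at 12.5, 10.7 and 11.1 CPM in KO. These groups did not overlap, as for 14.4% of all tested genes with KO higher, and the log2 fold change of 0.22 ± 0.11 (-0.02 to 0.47) did not pass (adjusted p = 0.285).

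**Figure D2:**
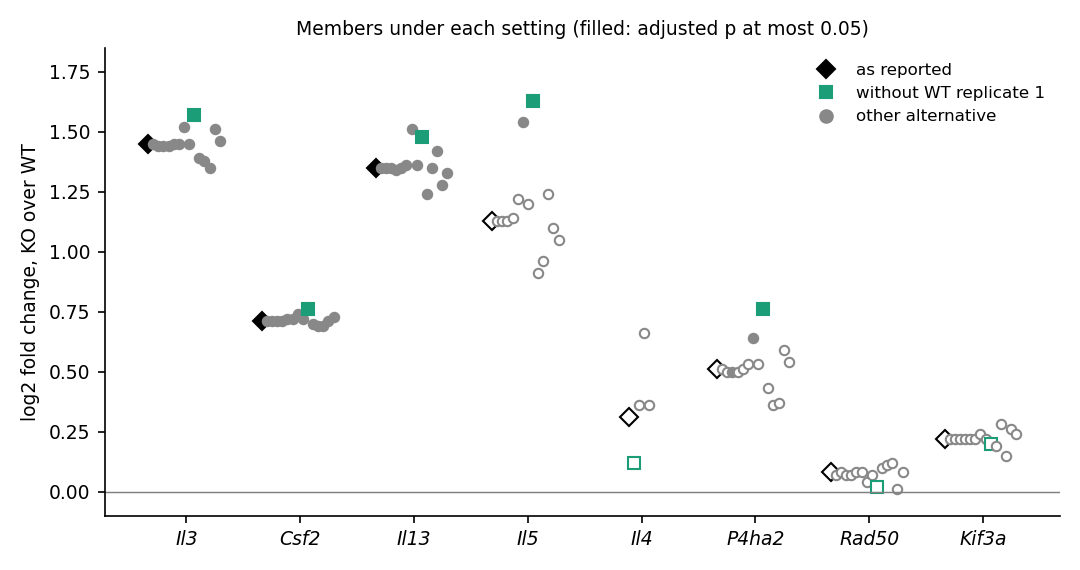
Log2 fold change of each member as reported (diamond), without WT replicate 1 (square) and under the other alternatives (circles), filled where the adjusted p was at most 0.05. Il3, Csf2 and Il13 are filled throughout, Il5 and P4ha2 in some settings only, and the diamond of Il4 is the fit without the low count filter.

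Whether linked members changed by unequal amounts was asked from ratios of counts within a library, in which library depth cancels. The Il3 to Csf2 ratio was 0.827, 0.714 and 0.713 in WT and 1.37, 1.13 and 1.25 in KO. Il3 counts were thus below Csf2 counts in every WT library and above them in every KO library, with a 1.66-fold difference of the ratio between the genotypes. The Il13 to Csf2 ratio was 0.0670, 0.0515 and 0.0626 in WT and 0.0814, 0.102 and 0.0990 in KO, 1.56-fold higher in KO and also without overlap. The Il3 to Il13 ratio, 11.4 to 13.9 in WT and 11.1 to 16.8 in KO, overlapped, with a log2 difference of 0.09. It was -0.08 without KO replicate 1, so that its sign is not set by these data. Il3 also separated from its neighbour P4ha2 (ratios 6.52, 7.75 and 8.52 against 13.6, 14.7 and 14.6), and Il13 from Rad50 (0.136, 0.0864 and 0.103 against 0.249, 0.259 and 0.270).

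Of the 9 ratios compared, the 5 without overlap (Il3 to Csf2, Il13 to Csf2, Il3 to P4ha2, Il13 to Rad50 and Il13 to Kif3a) each had a two-sided exact permutation p of 0.1, the smallest that 3 against 3 libraries can give, and 0.180 after Benjamini-Hochberg adjustment over the 9. None could therefore pass 0.05. The ratios of Il4 and Il5 to Il13 and of Il4 to Rad50 overlapped, with log2 differences of -1.19, -0.14 and 0.10, and rest on the few counts of Il4 and Il5. The sign of Il5 to Il13 turned without WT replicate 1 (0.12), and that of Il4 to Rad50 without WT replicate 1 or KO replicate 2 (-0.07 and -0.26).

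**Figure D3:**
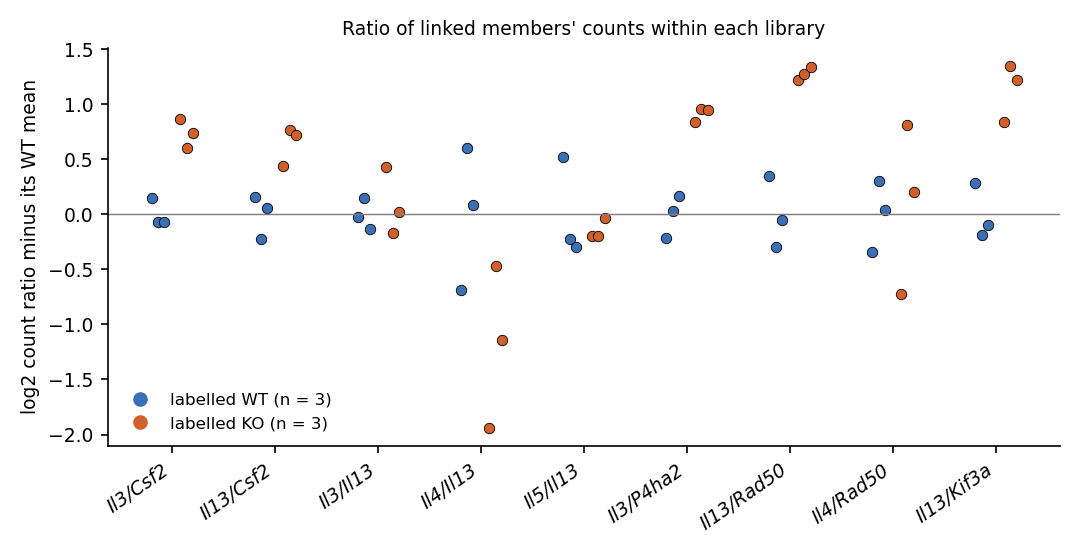
Log2 ratio of the counts of paired members within each library, less the WT mean of that ratio, with 1 point per library. The points of the 2 genotypes separate for Il3 to Csf2, Il13 to Csf2, Il3 to P4ha2, Il13 to Rad50 and Il13 to Kif3a and overlap for the other four.

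Along the chromosome, in the order of the RefSeq gene table, the members form a group of Kif3a, Il4, Il13, Rad50 and Il5 and a group of P4ha2, Csf2 and Il3, with 5 protein-coding genes in between. Of these 5, 4 were tested and none passed (median log2 fold change 0.04, against -0.01 over all tested genes). Irf1, the interferon regulatory factor beside Il5, averaged 9.15 ± 2.75 CPM among the WT and 9.86 ± 0.573 CPM among the KO libraries (log2 fold change 0.11, adjusted p = 0.791). Without WT replicate 1, its highest WT library, the Irf1 value was 0.38 (adjusted p = 0.0321), and without WT replicate 3 it was -0.02. The carnitine transporter gene Slc22a5 was at -0.08, its relative Slc22a21 at -0.02 and Pdlim4 at 0.68 with a standard error of 0.61, on the log2 scale. Slc22a4 had at most 6 counts and was not tested.

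Of the 15 protein-coding genes on each side of the cluster, 23 of 30 were tested, 2 were called higher and none lower, with a median of 0.07. Among all tested genes 3.92% were called higher and 2.47% lower. Anxa6, an annexin gene on the Il3 side, rose from 189 ± 22.0 to 273 ± 6.54 CPM (0.53 ± 0.07 on the log2 scale, adjusted p = 0.00166). Cdc42se2, also on that side, rose from 134 ± 2.35 to 153 ± 6.05 CPM (0.19 ± 0.05, adjusted p = 0.0472), and this call was lost when any library but WT replicate 1 was left out (adjusted p = 0.0790 to 0.243). Acsl6, the gene next to Il3, was at 0.36 ± 0.15 (adjusted p = 0.188), which passed without WT replicate 3 (0.52, adjusted p = 0.0369). Over the genes between and beside the members together, 2 calls became 12 without WT replicate 1, 3 without WT replicate 3 and 1 without any other single library. The share of all tested genes that passed was 19.7% without WT replicate 1 and 6.77% without WT replicate 3. Without any other single library it was 1.94% to 2.42%.

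**Figure D4:**
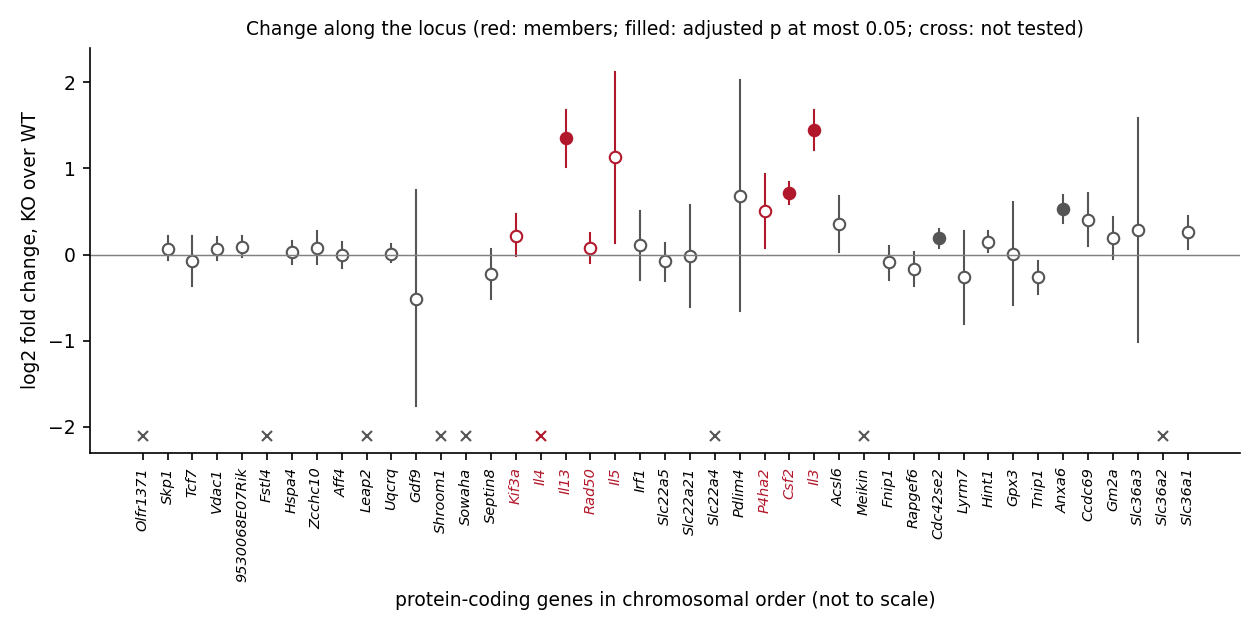
Log2 fold change with its 95% interval for the protein-coding genes of the locus in chromosomal order, members in red, filled where the adjusted p was at most 0.05. The intervals of Il13, Il5, P4ha2, Csf2 and Il3 lie above 0, with Il5 and P4ha2 not past the adjusted threshold. Those of Rad50, Irf1, Slc22a5, Slc22a21 and Pdlim4 in between include 0. On the Il3 side the intervals of Acsl6, Cdc42se2, Hint1, Anxa6, Ccdc69 and Slc36a1 also lie above 0, and that of Tnip1 lies below 0. Crosses mark genes with too few counts to test.

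The genes most like Il3, Csf2 and Il13 across the 6 libraries were ranked by the root mean square difference of centred log2 CPM, over 9184 tested genes with a mean of at least 5 CPM. Nearest to Il3 were Gzmc (0.090), Gpc1 (0.115), Asb2 (0.128), Tm6sf1 (0.15) and Il1a (0.152). Nearest to Il13 were Gpc1 (0.106), Tm6sf1 (0.124), Mmp19 (0.164), Gzmc (0.164) and Adam8 (0.167), so that Gpc1, Tm6sf1 and Gzmc stood in both lists. Il13 was the gene of rank 15 nearest to Il3 (0.202), and Il3 the gene of rank 9 nearest to Il13. Csf2 had other neighbours, Slc2a3 (0.035), Lgals3 (0.051), Thy1 (0.052), Prelid2 (0.060) and H2-Q4 (0.061), and from it Il3 ranked 5273 (0.382) and Il13 3686 (0.352). At the same distances Csf2 ranked 77 from Il3 and 68 from Il13. These distances share the same 6 libraries and largely rank genes by the size of their difference between the genotypes.

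The receptor chains for these cytokines include those for interleukin 3, GM-CSF and interleukin 5 with their shared beta chain, and those for interleukins 4 and 13. Of 9 chains, 6 were tested, none was higher and 1 was lower, with a median log2 fold change of -0.07. The share of all tested genes in this fit was 3.92% higher and 2.47% lower, here and for the lists below. Csf2ra, the GM-CSF receptor alpha chain, fell from 17.3 ± 0.735 to 13.2 ± 1.18 CPM (-0.39 ± 0.10, adjusted p = 0.0396). This call was lost when any library but WT replicate 1 was left out (adjusted p = 0.0671 to 0.187). The shared beta chain Csf2rb was at 7.69 ± 2.71 and 7.68 ± 0.218 CPM, with the highest value, 10.8 CPM, in WT replicate 1. The interleukin 4 receptor chain Il4ra was at 136 ± 17.4 and 129 ± 3.34 CPM (-0.08, adjusted p = 0.643), and the common gamma chain Il2rg was at 0.04 (adjusted p = 0.740). Il13ra2 had no count in any library, Il5ra at most 2 and Il13ra1 at most 4.

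Of 14 genes of the kinases, STAT factors and feedback inhibitors that act below these receptors, all were tested. None was higher and 2 were lower (median -0.05), against 3.92% and 2.47% of all tested genes. Stat5a, a main mediator of interleukin 3 and GM-CSF signals, fell from 925 ± 16.0 to 799 ± 19.6 CPM (-0.21 ± 0.04, adjusted p = 0.00918), and Stat5b from 374 ± 20.5 to 329 ± 2.98 CPM (-0.18 ± 0.05, adjusted p = 0.0479). Both calls were lost without WT replicate 2 or any single KO library (adjusted p = 0.0503 to 0.180), which left no call of the list. In those fits 1.94% to 2.42% of all tested genes passed. Without WT replicate 1 the list had 5 calls, in a fit in which 19.7% of all tested genes passed. Stat6, the mediator of interleukins 4 and 13, was at -0.05 ± 0.04, and Cish, a STAT5 target gene, at 0.03 ± 0.09, on the log2 scale.

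Of 35 genes that regulate T cell cytokine loci, all were tested. In this list 4 were higher and 2 lower (median 0.00), against 3.92% and 2.47% of all tested genes. Gata3, the Th2 factor that opens the Il4, Il5 and Il13 locus, was at 18.0, 19.4 and 22.3 CPM in WT and at 19.6, 19.2 and 17.2 CPM in KO. The groups overlapped (log2 fold change -0.09 ± 0.10, interval -0.32 to 0.13, adjusted p = 0.665). Tbx21, the Th1 factor T-bet, rose from 30.0 ± 5.48 to 62.3 ± 3.45 CPM (1.05 ± 0.12, adjusted p = 5.96e-04), and Egr1, an early response factor of receptor stimulation, from 66.8 ± 3.48 to 136 ± 6.11 CPM (1.02 ± 0.06, adjusted p = 3.06e-06). The related T-box factor Eomes (0.90, adjusted p = 0.0107) and the maintenance DNA methyltransferase gene Dnmt1 (0.33, adjusted p = 0.00177) were higher as well. The lower genes were the activation-induced factors Irf4 (-0.31, adjusted p = 0.00142) and Batf (-0.30, adjusted p = 0.0116). Tbx21, Egr1, Dnmt1 and Irf4 passed under all 14 alternatives. The list had 12 calls without WT replicate 1 and 4 when WT replicate 2 or KO replicate 1 or 3 was left out, the Batf and Eomes calls being those lost. Of all tested genes 19.7% passed without WT replicate 1, and 1.94% to 2.42% in those other fits. The NFAT genes Nfatc1 (0.14, adjusted p = 0.266) and Nfatc2 (-0.03, adjusted p = 0.903) and the AP-1 gene Junb (0.06, adjusted p = 0.806) did not pass.

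A list of 20 genes often seen with type 2 cytokines was mixed. Of 16 tested, 3 were higher and 2 lower (median 0.16), against 3.92% and 2.47% of all tested genes. Il6, the inflammatory cytokine gene, rose from 3.24 ± 0.366 to 11.3 ± 0.735 CPM (1.80 ± 0.14, adjusted p = 2.79e-05), and Il1rl1, the interleukin 33 receptor gene, from 9.45 ± 2.46 to 17.5 ± 2.12 CPM (0.89 ± 0.18, adjusted p = 0.0162). Pparg, a lipid-sensing nuclear receptor gene, was higher by 0.52 (adjusted p = 0.0406). The Pparg call was lost when any library but WT replicate 1 was left out (adjusted p = 0.0827 to 0.187). The chemokine receptor genes Ccr4 (94.1 ± 1.28 to 54.5 ± 3.55 CPM, -0.79, adjusted p = 2.88e-05) and Ccr8 (18.1 ± 1.43 to 11.7 ± 1.19 CPM, -0.63, adjusted p = 0.00592), both known from Th2 cells, fell. The list had 8 calls without WT replicate 1 and 3 when WT replicate 2 or KO replicate 1 or 3 was left out, where Il1rl1 and Pparg were lost. The share of all tested genes was 19.7% without WT replicate 1 and 1.94% to 2.42% in those other fits. Il9, the cytokine gene of Th9 cells, was at 1.36 ± 0.347 and 1.54 ± 0.0228 CPM and was not called.

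**Figure D5:**
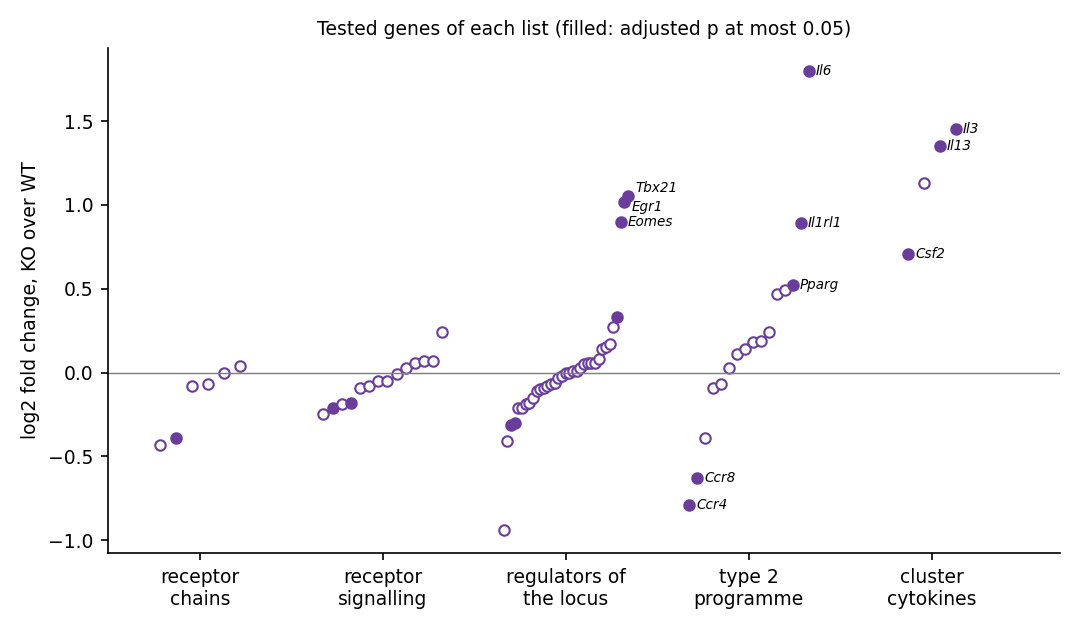
Log2 fold change of every tested gene in the lists of receptor chains, receptor signalling, regulators of the locus and the type 2 programme, beside the cluster cytokines, filled where the adjusted p was at most 0.05. Of the 4 lists, Il6, Tbx21 and Egr1 have filled points above 1, and Ccr4 and Ccr8 the lowest filled points.

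Genes of other cells that can produce these cytokines were read beside the members, and the part of such cells in the Il3, Csf2 and Il13 values was not tested. Of 12 mast cell and basophil markers, 7 had no count in any library (Fcer1a, Ms4a2, Mcpt4, Mcpt8, Tpsab1, Cma1 and Prss34), 2 were tested and none was called, and their summed level was 4.94 to 6.82 CPM in WT and 5.01 to 6.03 CPM in KO. The markers of this list with the highest level were Kit (4.90 ± 1.03 and 4.37 ± 0.354 CPM), Hdc (0.494 ± 0.125 and 0.886 ± 0.252 CPM) and Gata2 (0.206 ± 0.0587 and 0.271 ± 0.330 CPM). Of 7 eosinophil markers, Epx, Ear1, Ear2 and Ear6 had no count, and the sum was 4.75 to 6.24 CPM in WT and 9.09 to 11.9 CPM in KO, with Siglecf higher (0.96, adjusted p = 0.00698, and 0.0616 without KO replicate 1). Siglecf made up most of this sum, with 5.01 CPM in WT and 9.74 CPM in KO. Prg2, the other marker tested, was at 0.454 and 0.297 CPM (-0.60, adjusted p = 0.567). The 7 markers of group 2 innate lymphoid and NKT cells summed to 7.50 to 12.0 CPM in WT and 16.0 to 20.3 CPM in KO. Il1rl1, which is also in the type 2 list, made up most of this sum (WT mean 9.45 CPM, KO mean 17.5 CPM). It was the only call of the 2 tested, as Klrg1 did not pass (1.10, adjusted p = 0.241). Il17rb, Zbtb16, Arg1 and Calca had group means of at most 0.209 CPM, and Klrb1c was at 0.

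Gamma delta T cell genes were higher for 4 of 6 tested, against 3.92% of all tested genes. Their sums were 51.0 to 63.0 CPM in WT and 95.9 to 101 CPM in KO. The 4 called were the constant region genes Tcrg-C1, Tcrg-C4, Tcrg-C2 and Trdc. Their log2 fold changes were 1.09, 1.05, 1.00 and 0.67 (adjusted p = 0.00699, 8.96e-04, 1.12e-04 and 0.00256). Tcrg-C1 missed the threshold without KO replicate 2 (0.0567). Trdc made up most of the sum (WT mean 41.1 CPM, KO mean 65.7 CPM). The remaining tested genes, Blk (-1.85, adjusted p = 0.174) and Sox13 (-0.38, adjusted p = 0.704), had negative log2 fold changes and were not called. Blk rested on few counts (WT 12, 12 and 18, KO 4, 6 and 0). Whether the share of gamma delta T cells differed was not tested. Of 8 cytotoxic T and NK cell genes, 6 were tested and 3 were higher, with sums of 30.3 to 32.4 CPM in WT and 42.2 to 49.9 CPM in KO and no count of Ncr1. The receptor gene Klrk1 (0.92, adjusted p = 0.00185) passed in all 14 alternatives, Eomes is given above, and the granzyme gene Gzma (0.76, adjusted p = 0.0466) was lost without WT replicate 2 or any single KO library (0.0923 to 0.235). The 3 tested genes not called were Cd8a (0.08, adjusted p = 0.847), Cd8b1 (-0.03, adjusted p = 0.916) and Klre1 (-1.44, adjusted p = 0.205).

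The 13 B cell and myeloid markers held genes that moved in opposite directions. Of 7 tested, 2 were higher and 1 lower, against 3.92% and 2.47% of all tested genes. Fcer1g, the Fc receptor gamma chain gene of myeloid cells, NK cells, mast cells and basophils, rose from 0.769 ± 0.285 to 4.27 ± 0.874 CPM (2.46 ± 0.28, adjusted p = 4.49e-04) and passed in all 14 alternatives. Its log2 fold change was the largest among the called markers of other cells. The B cell factor gene Ebf1 fell from 15.6 ± 1.94 to 9.84 ± 1.07 CPM (-0.66, adjusted p = 0.010, and 0.0531 to 0.0731 without WT replicate 2 or KO replicate 1 or 2). The B cell receptor gene Cd79b was higher by 0.74 (adjusted p = 0.0391), a call lost when any library but WT replicate 1 was left out (0.0766 to 0.162). The sum over this list was 18.7 to 24.2 CPM in WT and 20.4 to 23.7 CPM in KO, with S100a8 and S100a9 at 0.

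The 9 CD4+ T cell genes summed to 2221 to 2647 CPM in WT and 2178 to 2240 CPM in KO, and none was called. Cd5 was at 836 ± 96.9 and 703 ± 9.99 CPM (-0.25, adjusted p = 0.0642), Trbc2 at 306 and 313 CPM (0.03, adjusted p = 0.728), and Lck at 257 ± 39.3 and 268 ± 3.93 CPM. Cd4 was at 290 ± 45.3 and 225 ± 9.38 CPM (-0.36, adjusted p = 0.0504). Without WT replicate 1 all but Trbc2 of these 4 passed, Cd5 at -0.15, Cd4 at -0.23 and Lck at 0.20 (adjusted p = 0.00263, 1.34e-04 and 5.12e-04). Without WT replicate 3 Cd5 and Cd4 passed (0.00643 and 0.0146). Over all 14 alternatives Cd4 passed in 7, Cd5 in 5 and Lck in 2. With all libraries kept, Cd4 passed with DESeq2 size factors (0.0459) and in the DESeq2 Wald test (0.00116), but not in limma-voom (0.0584). The 9 Th17 genes summed to 246 to 334 CPM in WT and 131 to 136 CPM in KO. In this list 4 were lower, against 2.47% of all tested genes, and none was higher. Beside Il17a and Il17f the lower genes were Rora, a nuclear receptor gene (-0.42, adjusted p = 0.00712), and Ccl20, a chemokine gene (-0.41, adjusted p = 0.00590). Rora was lost without any single KO library (0.0520 to 0.0661) and Ccl20 without KO replicate 2 or 3 (0.0501 and 0.0551). Of the 5 not called, Il22 alone had a positive log2 fold change (1.38 ± 0.45, adjusted p = 0.0993). It rested on 10 to 14 counts in WT and 16 to 42 counts in KO. Ifng, the Th1 cytokine gene, which lies on another chromosome, rose from 47.0 ± 12.3 to 133 ± 15.5 CPM (2.82-fold, adjusted p = 0.00766, and 0.0618 without the low count filter).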

How the data were processed

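RNA-seq of 6 libraries was analysed, 3 per genotype, grouped by the sample titles and genotype labels. The series' other 7 samples were not analysed here. The authors deposited raw gene counts, made with featureCounts 2.0.1 on the GENCODE vM33 annotation, exons summed by gene, per the file headers. The deposited values of WT replicate 2 are entered as another kind of value in the unit record and are raw counts like the rest. The commands of 5 libraries set no option for strand, multi-mapping or paired reads, and that of KO replicate 1 is printed without option names, per the file headers. Aligner and genome build were not given in the sources used here. Low counts (1 to 10) were even in 66.3% to 68.7% of cases and high counts (from 1000) in 48.8% to 50.9%. The reason was not tested, and low counts may rest on fewer fragments than counts.

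The members and gene lists were chosen with earlier results of these data known, and 1 gene of the lists is not reported here. Symbols matched 51948 of 56941 gene IDs, and genes without a symbol held 0.181% to 0.204% of the counts of a library. The genotypes were compared with edgeR 4.0.16 in R 4.3.3 (default low count filter, TMM factors of 0.984 to 1.016, robust quasi-likelihood fit, Benjamini-Hochberg adjustment over all tested genes, threshold 0.05). The code was tested on simulated data. CPM use TMM library sizes. A count of 3 in a library corresponded to 0.0663 to 0.0840 CPM, counting error only. Levels of different genes were not compared per length, because no transcript lengths were used here. Count ratios used a pseudocount of 0.5 and exact permutation tests over all splits (Python 3.11.15 with numpy 2.4.6). Named were all members, the genes between them, Chaf1b, Il17a, Il17f and Ifng, the called genes of each list with the largest change (at most 4, or the 3 of highest level where none was called), called flanking genes and the 5 nearest patterns. Gata3, Acsl6, Irf4, Batf, Dnmt1, Pparg, Cd4 and the uncalled receptor, STAT, NFAT, AP-1 and Il9 values fall outside that rule and were chosen after their values were seen.

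Alternatives were DESeq2 1.42.0 (size factors, and its Wald test), upper-quartile factors, no low count filter, a stricter one (1 CPM in 3 libraries), limma 3.58.1 voom without and with quality weights, a replicate block, each library left out in turn, and a ratio pseudocount of 0.1.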

Additional observations from a re-analysis of the deposited data

How the results depend on the processing

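The Il3, Csf2 and Il13 calls held in all 14 alternatives, with adjusted p of at most 6.21e-04, 0.00127 and 0.00824, and log2 fold changes of 1.35 to 1.57, 0.69 to 0.76 and 1.24 to 1.48 over the libraries left out in turn. Over the same, Il5 ran from 0.91 to 1.63, P4ha2 from 0.36 to 0.76, Il4 from 0.12 to 0.66, Rad50 from 0.01 to 0.12 and Kif3a from 0.15 to 0.28. Il5 passed with quality weights (1.54) and P4ha2 with quality weights (0.64) or no low count filter (0.50). Calls over all genes were 938, 1568 without the filter, 2934 with quality weights and 295 to 2961 with 1 library left out, the highest without WT replicate 1 and the lowest without KO replicate 1. WT and KO libraries of the same replicate number showed no shared deviation from their group means (correlations of -0.0398, -0.0281 and 0.000874). This cannot tell whether they were made as pairs. With the replicate block 671 genes were called and no member call changed, while the Cdc42se2, Csf2ra, Stat5b and Pparg calls were lost. Calls among the genes between and beside the members (2) were 1 with upper-quartile factors, limma-voom or the replicate block, 4 without the filter, 10 with quality weights and 1 to 12 with 1 library left out. Receptor chains had 0 calls with the replicate block and 0 to 1 with 1 library left out, and receptor signalling had 1 with upper-quartile factors, limma-voom or the replicate block and 0 to 5. Regulators had 11 and the type 2 list 8 with quality weights, and 4 to 12 and 3 to 8 with 1 library left out. With 1 library left out, values that changed sign ran from -0.02 to 0.38 for Irf1, -0.29 to 0.20 for Slc22a21, -0.25 to 0.02 for Kit and -0.01 to 0.20 for Lck, and log2 ratio differences from -0.08 to 0.22 for Il3 to Il13, -0.29 to 0.12 for Il5 to Il13 and -0.26 to 0.51 for Il4 to Rad50. The cause was not tested. Il4 passed the low count filter only without WT replicate 1 or 3 or KO replicate 1 or 3, and Il5 was removed by the stricter filter, so that the other settings gave no value there.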

Other observations

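Of 14 non-coding genes and pseudogenes that the RefSeq table places in the locus, 10 were in the counts table and none had enough counts to be tested. Gm12223, which overlaps Csf2, was counted 7, 4 and 3 times in the WT libraries and 7, 10 and 10 times in the KO libraries. A430108G06Rik, which overlaps Kif3a, had at most 6 counts in any library.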
